A study of Homo sapiens with 13 samples.

Results

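The designs described here are artificial enhancers that combine the binding motifs of FOXO and IRF, and of no other factor, in 1 short array. They were all constructs whose motif string held both of these names and no other, in any order, copy number and flanking context. In the episomal library with 10 bp between neighbouring motifs, 18 of 442 constructs met this rule. In the episomal library with 5 bp spacers there were 21 of 542. In the integrated 5 bp library 21 were listed, and 19 of 513 kept constructs had the 3 barcodes required for a value. The arrangements were FOXO-IRF, IRF-FOXO, FOXO-IRF-FOXO, IRF-FOXO-IRF, FOXO-IRF-FOXO-FOXO, FOXO-IRF-FOXO-IRF and FOXO-IRF-FOXO-IRF-FOXO, each in contexts 1, 2 and 3. IRF-FOXO-IRF was analysed at 5 bp only. No constructs of 4 or 5 motifs that start with IRF belong to the set, so copy number, the share of IRF and the motif at the end move together in it.

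FOXO factors are forkhead proteins that AKT phosphorylates and keeps out of the nucleus when PI3K signalling is high, and in B lymphocytes they drive genes of development, survival and cell cycle arrest. IRF proteins, the interferon regulatory factors, bind interferon-stimulated response elements, and IRF4 and IRF8 are known for their part in B cell and plasma cell transcription. The names give the motif family only, so which member of a family acts on an array was not measured. In STARR-seq the candidate enhancer lies inside the reporter transcript, and an active array raises its own share of the mRNA.

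The cells were MEC1, an established line from chronic lymphocytic leukaemia, wild type per the labels. In the integrated assay a CRE-mediated exchange placed the 5 bp library in a loxP-CMV-GFP-lox2272 landing pad of MEC1 cells that carry a CRE recombinase under Blasticidin. GFP-negative cells were sorted after 10 to 12 days and grown for 6 to 7 more days, and 3 mRNA and 3 genomic DNA extractions were made, for which no separate cultures are named. The episomal assay was harvested 24 h after transfection of the plasmids, in duplicate, which gave 2 mRNA libraries beside 1 plasmid DNA library for each of the 10 bp and the 5 bp pool. The episomal libraries held 3850658 to 4563359 reads, with 165 to 1623 barcodes per construct of the set except the 5-motif arrays at 5 bp, which had 83, 92 and 90. In the integrated library the set had 545 barcodes in 19 constructs, between 5 and 82 each.

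Activity below means the log2 of a construct's mRNA share over its plasmid DNA share, per mRNA replicate, or, for the integrated library, of its summed mRNA to its summed genomic DNA in RPM. For these integrated activities, mRNA and genomic DNA samples were set against each other by replicate number. A value of 0 means equal shares. In such pooled RNA, more reporter copies being transcribed and more RNA per copy cannot be told apart. Homotypic arrays are those of a single motif with the same total copy number and context. The rd constructs, 1 per context, carry no motif name and served as the construct without a motif.

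Each construct is read through random 12 bp barcodes, and in the integrated library a single barcode could carry much of a construct's mRNA. The barcodes with the highest mean mRNA of the constructs on which the integrated results turn are shown here, as listed in the deposited table and with all 12 bases in capitals.
IRF-FOXO-IRF, context 1: AATGGCAGACCT
IRF-FOXO-IRF, context 2: TAGAAATCAAGT
IRF-FOXO-IRF, context 3: TCATCGGCGGGC
IRF-FOXO, context 1: CTTGTACAGGCC
IRF-FOXO, context 3: GGAACAGCTTTT
rd, context 1: ACACCATGATAC
rd, context 2: ATGATTACGCAA
rd, context 3: CTCATCTAGTCC
The first of these held 73.9%, 66.2% and 59.4% of the mRNA of its construct in the 3 replicates, with 2.50% of its genomic DNA. The barcode of IRF-FOXO-IRF in context 3 held 16.6%, 20.7% and 16.4%. That of rd in context 2 held 93.0%, 83.1% and 74.4% of the mRNA of the construct, which has 38 barcodes. Integrated values were therefore also computed without the barcode of most mRNA in every construct, an alternative chosen after seeing the data.

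With 5 bp spacers in the episomal assay, arrays that ended in FOXO were the more active ones and those that ended in IRF the less active ones at 3 and 4 motifs. FOXO-IRF-FOXO had activities of 0.02 and 0.05 in context 1, 0.09 and 0.13 in context 2, and -0.16 and -0.09 in context 3. IRF-FOXO-IRF, with as many motifs but more IRF, had -0.76 and -0.69, -1.07 and -0.99, and -0.80 and -0.59 in contexts 1, 2 and 3. No replicate of IRF-FOXO-IRF reached the lowest of FOXO-IRF-FOXO. FOXO-IRF-FOXO-FOXO had 0.00 and 0.12 in context 1, 0.40 and 0.43 in context 2, and 0.04 and 0.12 in context 3. FOXO-IRF-FOXO-IRF had -0.49 and -0.55, -0.53 and -0.49, and -0.90 and -0.69. These arrays also did not overlap, in any context.

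The 5-motif array, FOXO-IRF-FOXO-IRF-FOXO, depended most on its context at 5 bp. It had 0.45 and 0.57 in context 1, 0.06 and 0.17 in context 2, and -0.90 and -0.86 in context 3. Context 1 gave the highest mean of the set, 0.51 ± 0.09 (SD, n = 2), and context 3 was lower than all but 1 member, at -0.88 ± 0.02. Context 3 minus context 1 was -1.39 (SE 0.04, limma, adjusted p = 1.4e-05), and the largest in any other arrangement was -0.91 (SE 0.04), for context 3 minus context 1 of IRF-FOXO. The lowest member was IRF-FOXO-IRF in context 2, at -1.03 ± 0.06, and next above the 5-motif array came FOXO-IRF-FOXO-IRF in context 3, at -0.79 ± 0.14. In all, 17 of the 21 context differences of the set passed at 5 bp, beside 78.5% of 534 over all constructs.

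Of the 18 designs that also exist at 10 bp, 11 had more mRNA relative to plasmid DNA at 5 bp and 4 less by edgeR's quasi-likelihood test with Benjamini-Hochberg adjustment. Over all 442 designs tested, 40.5% were higher and 49.5% lower. This split depended on the scaling: on library totals in place of TMM factors 2 of the 18 were higher and 10 lower, and scaled on the rd constructs 18 were higher and 0 lower. Without replicate 1 of the 5 bp mRNA 2 were lower. The 2 scalings moved the median of all designs by -0.67 and 0.75. Differences between constructs of 1 library, used below, do not depend on the scaling. They were tested with limma on per-replicate differences across all constructs with Benjamini-Hochberg adjustment. Their SE covers the mRNA libraries, since each episomal library has 1 plasmid DNA library, and pools its spread over all constructs. The sampling error over barcodes, not part of that SE, was 0.03 to 0.09 per member at 5 bp and 0.02 to 0.07 at 10 bp.

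Against rd of the same context, 20 of 21 arrays were higher at 5 bp and 0 lower, where 63.6% of all 539 constructs with motifs were higher and 30.2% lower. The median difference was 1.05, against 0.51 over all constructs. The array that did not pass was IRF-FOXO-IRF in context 2, at 0.09 (SE 0.06, limma adjusted p = 0.18). The highest differences from rd were those of the 5-motif array in context 1, 1.76, and of FOXO-IRF-FOXO-FOXO in contexts 3 and 2, 1.63 and 1.53 (SE 0.06 each). The rd constructs had -1.27 and -1.23 in context 1, -1.06 and -1.17 in context 2, and -1.58 and -1.51 in context 3.

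Set against the homotypic arrays at 5 bp, 14 of the 21 mixed arrays were above both of them. Against homotypic FOXO arrays 16 were higher and 3 lower, and against homotypic IRF arrays likewise 16 higher and 3 lower. Over all mixed arrays and both of their motifs, 56.4% of 842 such differences were higher and 33.8% lower. These are shares of single differences. The share of all mixed arrays above both of their homotypic arrays was not computed, so whether 14 of 21 is unusual was not tested. The median difference was 0.60 from FOXO arrays and 0.43 from IRF arrays, against 0.33 over all 842. FOXO-IRF-FOXO-FOXO in context 2, at 0.40 and 0.43, stood 1.19 (SE 0.06) above the array of 4 FOXO motifs, which had -0.79 and -0.76, and 1.26 (SE 0.07) above that of 4 IRF motifs, which had -0.99 and -0.72. The limma adjusted p-values were 8.3e-08 and 9.5e-08. The single array below both was IRF-FOXO-IRF in context 2, at -0.20 (SE 0.05, limma adjusted p = 0.0064) from 3 FOXO motifs and -0.13 (SE 0.05, limma adjusted p = 0.037) from 3 IRF motifs. Without replicate 1 of the 5 bp mRNA 0 arrays were below FOXO arrays and 1 was below IRF arrays, and without replicate 2 likewise 1 was below IRF arrays.

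As a middle expectation, the log2 activities of both homotypic arrays were averaged with the copy numbers as weights. At 5 bp 16 mixed arrays lay above this mean and 3 below by limma, where over all 418 mixed arrays 60.3% were above and 32.3% below. The 3 largest departures were 1.21 for FOXO-IRF-FOXO-FOXO in context 2, 1.13 for the same arrangement in context 1 and 0.96 for FOXO-IRF-FOXO in context 2. The 3 smallest were -0.15 for FOXO-IRF in context 2, -0.15 for IRF-FOXO-IRF in context 2 and -0.11 for IRF-FOXO-IRF in context 3. Their SEs were 0.03 or 0.04, and without replicate 2 of the 5 bp mRNA 1 array lay below the mean. Of these named arrays, the 3 highest held 1 IRF motif among FOXO motifs, and the 3 lowest held as many or more IRF than FOXO motifs. The other arrays were not split in this way. The 5-motif array in context 1, with 2 IRF motifs, had 0.91, and FOXO-IRF in context 3 had 0.65.

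Arrays that differ by 1 motif at the end were compared next. This comparison, the exchange of the outer motifs and the comparison of contexts were added after seeing the data. At 5 bp, adding FOXO gave a higher activity in 7 of 9 pairs and a lower one in 0, while adding IRF gave a lower one in 5 of 6 pairs and a higher one in 0 by limma. Over the 256 such pairs of all motifs, 39.1% were higher and 48.4% lower. In contexts 1, 2 and 3, FOXO-IRF-FOXO exceeded FOXO-IRF by 0.25, 0.80 and 0.34 (SE 0.03 each). One more FOXO motif on this array gave differences of 0.02 (SE 0.04, limma adjusted p = 0.67), 0.30 (SE 0.03) and 0.20 (SE 0.04). One more IRF motif instead gave -0.56 (SE 0.05), -0.62 (SE 0.04) and -0.67 (SE 0.04).

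The later steps followed the same split, except in context 3. FOXO on FOXO-IRF-FOXO-IRF gave 1.03 (SE 0.05) in context 1, 0.62 (SE 0.03) for context 2 and -0.09 (SE 0.05, limma adjusted p = 0.16) in context 3. IRF added to IRF-FOXO gave -0.91 (SE 0.03) for context 1, -0.96 (SE 0.03) for context 2 and 0.03 (SE 0.05, limma adjusted p = 0.63) in context 3. FOXO-IRF-FOXO minus IRF-FOXO-IRF was 0.76 (SE 0.04), 1.14 (SE 0.04) and 0.57 (SE 0.05), and all 3 pairs passed, as did 57.7% of 71 such pairs in the upward direction and 35.2% in the downward one. In these pairs FOXO-IRF-FOXO also holds more FOXO and fewer IRF copies than IRF-FOXO-IRF. The pairs share constructs, so these differences are not independent of each other.

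With 10 bp spacers the alternating arrays of 5 and 4 motifs had the highest means over the 3 contexts, 1.46 ± 0.06 and 1.11 ± 0.05 (SD over 2 replicates), although in context 2 FOXO-IRF-FOXO and FOXO-IRF lay above FOXO-IRF-FOXO-IRF. FOXO-IRF-FOXO-IRF-FOXO had 1.66 and 1.73 in context 1, 1.22 and 1.32 in context 2, and 1.36 and 1.46 in context 3. FOXO-IRF-FOXO-IRF had 1.36 and 1.39, 0.81 and 0.89, and 1.07 and 1.16. FOXO-IRF-FOXO-FOXO, with 1 IRF motif only, had 0.28 and 0.28, -0.13 and -0.09, and 0.44 and 0.58. In each context the arrays with 2 IRF motifs lay above FOXO-IRF-FOXO-FOXO in both replicates, the reverse of the order of the 4-motif arrays at 5 bp.

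FOXO-IRF-FOXO was split by context at 10 bp. It had -0.79 and -0.88 in context 1, but 1.28 and 1.25 in context 2 and 1.02 and 1.02 in context 3. Context 2 minus context 1 was 2.11 (SE 0.04) and context 3 minus context 1 was 1.86 (SE 0.04), with limma adjusted p-values of 8.9e-07 and 1.4e-06. The largest context difference of any other arrangement at 10 bp was 0.62 (SE 0.04), for context 3 minus context 2 of FOXO-IRF-FOXO-FOXO, and 17 of 18 differences passed, beside 85.2% of 440 over all constructs. The design in context 1 was the single member called lower in mRNA than in plasmid DNA with TMM scaling, at -0.28 (SE 0.05, edgeR), where FOXO-IRF-FOXO-FOXO in context 2, whose shares gave a mean activity of -0.11, had 0.44 (SE 0.06, edgeR). FOXO-IRF-FOXO in context 1 was also the single member below rd, at -0.16 (SE 0.06, limma adjusted p = 0.016). It was read through 1151 barcodes with 17325 plasmid reads, its barcodes had activity quartiles of -1.54, -0.86 and -0.37, and its top barcode held 1.06% of its mRNA. The files hold no insert sequence, so whether this construct carries its designed array in the 10 bp pool was not tested. The context differences, the difference from rd, the differences from longer and shorter arrays and its spacer difference rest on this construct. The longer arrays FOXO-IRF-FOXO-FOXO and FOXO-IRF-FOXO-IRF of context 1 exceeded it by 1.12 (SE 0.04) and 2.22 (SE 0.05). Set against the shorter FOXO-IRF of context 1, which had 0.70 and 0.64, it was lower by a difference of -1.51 (SE 0.03). The difference from rd did not pass with 20 plasmid reads, at -0.12, or without replicate 1 of the 10 bp mRNA, at -0.14.

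Against plasmid DNA, 17 of 18 arrays were higher and 1 lower at 10 bp by edgeR, where 45.7% of all 442 designs were higher and 48.6% lower. Against rd, 17 were higher and 1 lower by limma, and over all 439 constructs with motifs 46.5% were higher and 47.6% lower. The median difference from rd was 1.39 for the set and -0.05 over all constructs. The rd constructs had -0.62 and -0.74 in context 1, -0.27 and -0.35 in context 2, and -0.82 and -0.93 in context 3.

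The homotypic arrays bracketed most of the set at 10 bp. All 18 mixed arrays exceeded the homotypic FOXO arrays, by 1.06 to 3.32 with a median of 2.05, while 6 were above and 11 below the homotypic IRF arrays, with a median of -0.56. Of 642 differences over all mixed arrays 62.9% were higher and 29.4% lower, and their median was 0.50. The 11 arrays below IRF arrays were all 6 arrays of 1 FOXO and 1 IRF motif, the 3 of FOXO-IRF-FOXO-FOXO, and FOXO-IRF-FOXO in contexts 1 and 3. The 5-motif array was above that of 5 IRF motifs in all 3 contexts, by 0.83 (SE 0.06), 0.79 (SE 0.06) and 0.38 (SE 0.05). In context 1 it had 1.66 and 1.73, against 0.81 and 0.91 for 5 IRF motifs and -1.62 and -1.62 for 5 FOXO motifs. It thus lay above both arrays in each replicate. Homotypic IRF arrays of 2, 3, 4 and 5 motifs averaged 1.51, 1.17, 0.99 and 0.79 over contexts, so the matched array was the lowest of these. Against 2 IRF motifs, as many as it holds, the 5-motif array was lower in contexts 1 and 2, with means of 1.70 against 1.77 and 1.27 against 1.57. In context 3 it was higher, with 1.41 against 1.20. These differences from 2 IRF motifs were not tested.

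All 18 arrays were above the copy-weighted mean at 10 bp, where 68.2% of all 318 mixed arrays were above and 23.6% below. The 3 largest departures were those of the 5-motif array in contexts 1 and 2, 2.32 and 1.98, and of FOXO-IRF-FOXO in context 2, 1.81. The 3 smallest were 0.11 for IRF-FOXO in context 3, 0.13 for FOXO-IRF-FOXO in context 1 and 0.34 for IRF-FOXO in context 2, with SEs of 0.03 or 0.04 and limma adjusted p-values of at most 0.014. Against a mean of linear values these 3 and another 2 turned below 0, with -0.33, -0.32 and -0.20 for IRF-FOXO in contexts 1, 2 and 3, -0.26 for FOXO-IRF in context 1 and -0.52 for FOXO-IRF-FOXO in context 1. Relative to the stronger homotypic array instead of the mean, 6 were above and 11 below. The share of all mixed arrays for this reference is not given here.

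The effect of the motif added at the end was less uniform at 10 bp. Adding FOXO was higher in 6 of 9 pairs and lower in 3, and adding IRF was higher in 1 of 3 and lower in 1 by limma. Of 156 pairs of all motifs 40.4% were higher and 45.5% lower. Pairs with FOXO-IRF-FOXO in context 1, whose insert was not checked, gave -1.51 and 1.12 for FOXO and 2.22 for IRF. The last is the single IRF step called higher. FOXO on FOXO-IRF-FOXO-IRF gave 0.32 (SE 0.05), 0.42 (SE 0.03) and 0.29 (SE 0.05), higher in all 3 contexts. FOXO on FOXO-IRF-FOXO gave 1.12 in context 1 but -1.38 (SE 0.03) and -0.51 (SE 0.04) in contexts 2 and 3, where the same addition at 5 bp had given 0.02, 0.30 and 0.20.

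The 2 spacers were compared in the 18 shared designs as the difference of the log2 ratio of mRNA to plasmid DNA. Each spacer is its own plasmid pool, so spacer and pool cannot be told apart in these differences or those below. At 10 bp 16 designs were higher than at 5 bp and 2 lower by edgeR, where over all 442 designs 36.0% were higher and 41.2% lower. The 5 with the largest absolute difference were the 5-motif array in context 3, at 2.30 (SE 0.10), FOXO-IRF-FOXO-IRF in contexts 3, 1 and 2, at 1.92 (SE 0.11), 1.91 (SE 0.10) and 1.37 (SE 0.09), and FOXO-IRF in context 2, at 1.78 (SE 0.08). The 5-motif array in context 3 had 1.36 and 1.46 at 10 bp, against -0.90 and -0.86 at 5 bp. The 2 designs that were lower at 10 bp were FOXO-IRF-FOXO in context 1, at -0.86 (SE 0.08), and FOXO-IRF-FOXO-FOXO in context 2, at -0.51 (SE 0.08). Scaling on rd, whose own activities were higher at 10 bp, moved the median of all designs by -0.71. The 5 differences were then 1.60, 1.21, 1.20, 0.67 and 1.07, and 11 of the 18 designs were higher and 4 lower. The share of all designs called with this scaling is not given here. The sign turned in 4 designs, to -0.48 and -0.26 for FOXO-IRF-FOXO-FOXO in contexts 1 and 3 and to -0.28 and -0.20 for IRF-FOXO in contexts 1 and 2.

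Relative to its homotypic FOXO and IRF arrays, the set differed between the 5 bp and the 10 bp library in opposite directions. Mixed minus FOXO array was higher at 10 bp than at 5 bp in 17 of 18 designs and lower in 0, with a median of 1.49 for the 10 bp minus 5 bp value. Mixed minus IRF array was higher in 0 and lower in 12, with a median of -1.10. Over all mixed arrays 39.7% of 642 such values were higher and 43.3% lower, by limma. The departure from the copy-weighted mean was higher at 10 bp than at 5 bp in 11 designs and lower in 5, where 40.6% of 318 were higher and 42.1% lower. It was higher in all 6 alternating arrays of 4 and 5 motifs, by 1.01 to 1.60 (SE 0.04 to 0.06). Against the stronger homotypic array the sign turned in 3 of these 6, to -0.079 and -0.28 for FOXO-IRF-FOXO-IRF in contexts 1 and 2 and -0.011 for the 5-motif array in context 1.

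Arrays of 1 FOXO and 1 IRF motif differed by their order in each episomal library, but not in the same direction. At 10 bp FOXO-IRF had 0.70 and 0.64 in context 1, 1.08 and 1.09 in context 2, and 0.57 and 0.58 in context 3. IRF-FOXO had 0.61 and 0.60, 0.39 and 0.46, and 0.32 and 0.35. The difference of FOXO-IRF minus IRF-FOXO was 0.06 (SE 0.03, limma adjusted p = 0.13), 0.65 (SE 0.03) and 0.24 (SE 0.04), so 2 of 3 passed, where 39.3% of 84 swapped pairs were higher and 39.3% lower. The sign in context 1 changed with the plasmid read minimum, to -0.10 with 20 reads.

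At 5 bp FOXO-IRF had -0.22 and -0.21 in context 1, -0.70 and -0.68 in context 2, and -0.53 and -0.39 in context 3. IRF-FOXO had 0.14 and 0.22, -0.09 and -0.04, and -0.75 and -0.71. FOXO-IRF minus IRF-FOXO was -0.40 (SE 0.03) for context 1, -0.62 (SE 0.03) for context 2 and 0.27 (SE 0.04) for context 3, and all 3 passed, where 33.3% of 84 were higher and 50.0% lower. The signed order difference, 10 bp minus 5 bp, was higher in context 1, by 0.46 (SE 0.05), and in context 2, by 1.28 (SE 0.05), where it was above 0 at 10 bp and below 0 at 5 bp. In size it was smaller at 10 bp in context 1, and in context 2 the sizes were close, 0.65 at 10 bp and -0.62 at 5 bp. Over all motifs 52.4% of 84 pairs were higher and 33.3% lower. In context 3 the spacers differed by -0.02 (SE 0.05, limma adjusted p = 0.67), with a 95% interval half-width of 0.10.

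After integration, IRF-FOXO-IRF had the highest mean over contexts, but its values in contexts 1 and 2 moved with a single barcode each. IRF-FOXO-IRF had 2.14, 1.70 and 2.41 in context 1, 0.80, 0.60 and 1.28 in context 2, and 1.38, 1.56 and 1.62 in context 3. IRF-FOXO had 2.02, 1.28 and 1.57, 0.61, 0.21 and 0.42, and 0.35, 0.73 and 0.60. FOXO-IRF-FOXO-IRF in context 2, with 8 barcodes, had 1.54, 0.20 and 1.93. These 3 arrangements held the 5 highest means, which were 2.08 ± 0.36 and 1.52 ± 0.13 for IRF-FOXO-IRF in contexts 1 and 3, 1.62 ± 0.37 for IRF-FOXO in context 1, 1.22 ± 0.91 for FOXO-IRF-FOXO-IRF in context 2 and 0.90 ± 0.35 for IRF-FOXO-IRF in context 2 (SD, n = 3). Without the barcode of most mRNA of each construct, IRF-FOXO-IRF had 0.52, 0.06 and 1.47 in contexts 1, 2 and 3. FOXO-IRF-FOXO-IRF then had 0.56, 0.63 and 0.23, and IRF-FOXO had 0.73, 0.18 and -0.01. IRF-FOXO-IRF was thus the highest of these 3 in context 3 only.

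The lower end was held by arrays that start with FOXO. FOXO-IRF-FOXO had 0.58, -0.01 and -0.21 in context 1, -0.15, -0.08 and 0.26 in context 2, and -1.03, -1.26 and -1.25 in context 3, the lowest member. FOXO-IRF had -0.40, -0.33 and -0.32, 0.41, -0.26 and -0.72, and -1.12, -1.04 and -0.25. FOXO-IRF-FOXO-FOXO averaged -0.37 ± 0.97, 0.11 ± 0.30 and -0.47 ± 0.62 in contexts 1, 2 and 3 (SD, n = 3). The 5-motif array was measured in context 1 alone, with 5 barcodes, and had 1.61, -0.47 and -0.25. Its contexts 2 and 3 had 1 and 2 barcodes and were left out.

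Against genomic DNA 7 of 19 arrays were higher and 2 lower by limma on log2(RPM + 0.5), where 13.5% of all 513 constructs were higher and 55.9% lower. The 7 were all 3 of IRF-FOXO-IRF, IRF-FOXO in contexts 1 and 3 and FOXO-IRF-FOXO-IRF in contexts 1 and 2. Centred on rd, 14 were higher and 0 lower, and without the barcode of most mRNA 2 were higher and 3 lower. The shares over all 513 constructs in these settings are not given here, so these counts describe the set only. Without replicate 1 or 3 there were 3 higher, and without replicate 1 or 2 there was 1 lower. Of 18 context differences 0 passed by limma and 4 had an unadjusted p under 0.05, beside 12.2% of 492 over all constructs.

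Against rd 10 of 19 integrated arrays were higher and 0 lower, where 27.8% of all 510 constructs were higher and 27.6% lower. The rd constructs had -0.87, -0.86 and -1.27 in context 1, 0.53, 1.32 and 0.40 in context 2, and -3.59, -3.82 and -3.90 in context 3. None of the 6 arrays of context 2 passed. Without the barcode of most mRNA of each construct, rd of context 2 had -3.27, -1.18 and -1.44, and 10 arrays were higher. Leaving out 1 replicate gave 7 to 8, and 2 of the 10 differences, those of FOXO-IRF-FOXO and FOXO-IRF-FOXO-IRF in context 1, had a 95% interval over barcodes that held 0. IRF-FOXO-IRF in context 3 exceeded rd by 5.29 (SE 0.29, limma adjusted p = 0.0028), and by 6.31 (SE 0.67, limma adjusted p = 0.012) without those barcodes. The rd construct of context 3 had mRNA in only 2, 3 and 2 of its 46 barcodes, with a sampling error over barcodes of 0.75. Without its barcode of most mRNA it had -5.15, -3.80 and -5.57, so the larger difference came from a lower reference.

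Among the integrated constructs 13 of 19 mixed arrays exceeded the homotypic FOXO array and 0 were lower, with a median difference of 3.00. Against homotypic IRF arrays 8 of 18 were lower and 0 higher, with a median of -1.38. Over all mixed arrays 18.3% of 775 differences were higher and 15.5% lower, with a median of -0.02. IRF-FOXO-IRF in context 2 had 0.80, 0.60 and 1.28, against -2.72, -3.57 and -3.05 for 3 FOXO motifs and 1.08, 0.63 and 0.34 for 3 IRF motifs. It exceeded the FOXO array in every replicate, by 4.01 (SE 0.36, limma adjusted p = 0.015), and overlapped with the IRF array, with a difference of 0.21 (SE 0.42, limma adjusted p = 0.71). FOXO-IRF-FOXO in context 3 lay 3.32 log2 units below 3 IRF motifs, a difference of -3.32 (SE 0.34, limma adjusted p = 0.017). Of the 13 higher arrays 1, IRF-FOXO-IRF in context 1, had a 95% interval over barcodes that held 0. Without the barcodes of most mRNA 2 arrays exceeded FOXO arrays and 0 were below IRF arrays. These are counts of calls, not sizes of the differences. Homotypic FOXO arrays could then have no mRNA left in a replicate, as 2 FOXO motifs in context 3, with -4.38, -3.12 and -11.27. Whether this cost calls was not tested. Leaving out any of the 3 replicates left 0 calls in both comparisons.

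From the copy-weighted mean 2 of 18 integrated arrays departed upward and 0 downward, where 12.5% of 375 were higher and 6.93% lower. These were IRF-FOXO in context 3, at 2.71 (SE 0.37, limma adjusted p = 0.028), and FOXO-IRF-FOXO in context 2, at 1.86 (SE 0.38, limma adjusted p = 0.047), which was named after its value was seen. Neither passed without the barcodes of most mRNA or with any replicate left out. IRF-FOXO in context 1 had 2.16 (SE 0.46, limma adjusted p = 0.053). The 3 smallest were -0.90 and -0.49 for FOXO-IRF-FOXO in contexts 3 and 1 and 0.18 for FOXO-IRF in context 2, with limma adjusted p-values of 0.13 to 0.74. The largest departure, 2.85 for FOXO-IRF-FOXO-FOXO in context 2, did not pass (SE 1.20, limma adjusted p = 0.16), and the array of 4 FOXO motifs in that context had -1.53 and -3.23 in replicates 1 and 3 and was listed at 0 mRNA in replicate 2.

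Swapping the order of 2 motifs and exchanging outer and central motifs both gave lower integrated activity where FOXO was first or outermost. The exchange also replaces a FOXO copy by an IRF copy, so position and composition cannot be told apart in it. FOXO-IRF minus IRF-FOXO was -1.97 (SE 0.38, limma adjusted p = 0.048) in context 1, -0.60 (SE 0.40, limma adjusted p = 0.31) in context 2 and -1.36 (SE 0.40, limma adjusted p = 0.094) in context 3. It was below 0 in every replicate of each context, and 1 of 3 passed, where 8.33% of 84 pairs were higher and 7.14% lower. FOXO-IRF-FOXO minus IRF-FOXO-IRF was -1.97 (SE 0.43, limma adjusted p = 0.041), -0.88 (SE 0.38, limma adjusted p = 0.12) and -2.70 (SE 0.38, limma adjusted p = 0.021), again below 0 in every replicate. Of 71 such pairs 12.7% were higher and 11.3% lower. Without the barcode of most mRNA the exchange of outer motifs gave -0.63, -0.29 and -2.86, of which context 3 passed (limma adjusted p = 0.029), and replicate 1 of context 1 turned above 0, with 0.45 for FOXO-IRF-FOXO and 0.24 for IRF-FOXO-IRF. The order of 2 motifs gave -1.55, -1.06 and -0.99, of which 0 passed. With any of the 3 replicates left out 0 order differences passed, and the exchange passed in 1 context without replicate 1 and in 0 without replicate 2 or 3.

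Of 13 pairs that differ by a motif at the end, 0 passed in the integrated library and 1 had an unadjusted limma p under 0.05, where 0.844% of 237 pairs were lower and 0.0% higher. Adding IRF gave estimates above 0 in 6 of 6 pairs, between 0.46 and 1.63, and adding FOXO in 4 of 7, between -0.49 and 0.71. The median over all 237 pairs was 0.22, and their share above 0 is not given here. Without the barcode of most mRNA, IRF added to IRF-FOXO gave -0.21 in context 1 and -0.12 in context 2.

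A measure that no single barcode can set is the percentage of a construct's integrated barcodes that had mRNA. Shares here and below pool the barcodes of the 3 contexts unless a context is named. FOXO-IRF-FOXO had mRNA for 30.4% ± 7.02 of 170 barcodes and IRF-FOXO-IRF for 59.1% ± 2.72 of 106 (SD, n = 3). FOXO-IRF had 30.9% ± 2.06 of 97 and IRF-FOXO 42.0% ± 4.12 of 92. In contexts 1, 2 and 3, FOXO-IRF-FOXO had 44.0%, 36.0% and 19.5%, with 82 of its barcodes in context 3. IRF-FOXO-IRF had 63.6%, 46.2% and 63.1%. FOXO-IRF had 39.4%, 25.9% and 27.0%, and IRF-FOXO had 63.8%, 46.7% and 28.0%. At 4 motifs FOXO-IRF-FOXO-IRF had 55.9% ± 11.3 of 31 and FOXO-IRF-FOXO-FOXO 38.6% ± 2.27 of 44. A single IRF motif had 37.1% ± 4.45 of 79, above FOXO-IRF and FOXO-IRF-FOXO in the mean. Within context 1 FOXO-IRF-FOXO was the higher, at 44.0% against 40.5% for a single IRF motif. Homotypic IRF arrays of 2, 3 and 4 motifs had 63.7% ± 4.49, 65.1% ± 8.73 and 76.0% ± 8.00, homotypic FOXO arrays of 1 to 5 motifs had 11.1% to 19.6%, and rd had 9.49% ± 3.08 of 123.

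With contexts pooled, every mixed arrangement thus had a higher share than every homotypic FOXO array and rd in the mean of 3 replicates. Within context 2 FOXO-IRF and 1 FOXO motif both had 25.9%, and 5 FOXO motifs, with 3 barcodes only, had 55.6%. The pooled replicates of FOXO-IRF-FOXO, 35.3%, 33.5% and 22.4%, lay below those of IRF-FOXO-IRF, 57.5%, 62.3% and 57.5%. This held within contexts 1 and 3. In context 2 they overlapped, with 39.5%, 39.5% and 28.9% against 50.0%, 53.8% and 34.6%. Counting a barcode with mRNA in any replicate, FOXO-IRF-FOXO had 55.3% (Wilson 95% interval 47.8% to 62.6%), IRF-FOXO-IRF 81.1% (72.6% to 87.4%) and rd 19.5% (13.5% to 27.4%). These intervals cover counting error over barcodes only, and no test was run on the shares.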

How the data were processed

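Episomal values were raw read counts per barcode, deposited by the authors, per the file headers, with at least 1 read in every library listed. Integrated values were RPM per barcode, as deposited by the authors and limited to barcodes with at least 2 RPM in each genomic DNA sample. Plasmid DNA of the integrated table was given as deposited counts. Neither aligner nor counter is given in the sources used here. Another 9 columns of per-sample values matched no label and were not used. Between 16.6% and 18.5% of the episomal reads had no construct name and stayed out.

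Named barcodes with at least 5 plasmid reads were summed per construct, with at least 5 barcodes (integrated: 3, and a pseudocount of 0.5 RPM, which understates folds of weak constructs). edgeR 4.0.16 (quasi-likelihood, TMM) fitted 442 designs over 6 libraries, and limma 3.58.1 the integrated library and all differences between constructs, in R 4.3.3. Adjusted p-values under 0.05 passed. Both were run on simulated data without single dominant barcodes, and the outcome is not given here. Named were, per library, the 5 members of highest and lowest activity, the 3 largest and smallest departures from the copy-weighted mean, the 5 largest spacer differences and every array of 1 motif each. The members and lists were chosen with earlier results of these data known. Listing only barcodes with mRNA overstates weak episomal constructs. Nothing names the triplicates as separate cultures, so their p-values may measure technical spread. Reads carry no molecular identifiers, so intervals cover counting error only.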

Additional observations from a re-analysis of the deposited data

Results flagged for a closer look

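Effects that differed between spacers or between assays are given as values. Spacer and plasmid pool cannot be told apart. The ratio of mRNA to plasmid DNA differed between spacers, 10 bp minus 5 bp, by 2.30 for FOXO-IRF-FOXO-IRF-FOXO in context 3, by 1.91, 1.37 and 1.92 for FOXO-IRF-FOXO-IRF in contexts 1, 2 and 3, and by 1.78 for FOXO-IRF in context 2 (edgeR interaction). The departure from the copy-weighted mean differed between spacers in 16 designs by limma. For FOXO-IRF-FOXO-IRF-FOXO it was higher at 10 bp by 1.41, 1.25 and 1.60 in contexts 1, 2 and 3, and for FOXO-IRF-FOXO-IRF by 1.05, 1.01 and 1.30. For FOXO-IRF-FOXO the difference was -0.74, 0.85 and 0.74, and for FOXO-IRF 0.22, 1.14 and -0.29. IRF-FOXO had -0.24 and -0.27 in contexts 1 and 3, and FOXO-IRF-FOXO-FOXO -0.18 and 0.50 in contexts 2 and 3. The effect of motif order, FOXO-IRF minus IRF-FOXO, differed by 0.46 in context 1 and 1.28 in context 2.

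Exchanging outer and central motifs went in opposite directions in the integrated and the episomal 5 bp library, in every replicate and context with all barcodes. The exchange also changes the copies of each motif. FOXO-IRF-FOXO minus IRF-FOXO-IRF averaged -1.97 ± 0.58, -0.88 ± 0.18 and -2.70 ± 0.26 after integration (SD, n = 3) and 0.76 ± 0.03, 1.14 ± 0.03 and 0.57 ± 0.09 on plasmids (SD, n = 2). Without the barcode of most mRNA the integrated differences were -0.63, -0.29 and -2.86, and replicate 1 of context 1 was above 0. The difference of these differences, integrated minus episomal, was -2.73, -2.02 and -3.27 in contexts 1, 2 and 3. Motif order in context 3 was also opposite, by -1.63. These differences between assays were not tested.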

How the results depend on the processing

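Of the alternatives, those that moved a count of arrays passing in 1 direction by over 1.5 times are given here. They are counts of the set, without the shares over all constructs under the same alternatives. For mRNA against plasmid DNA at 5 bp, library totals gave 2 higher and 10 lower, scaling on rd 18 higher and 0 lower, and DESeq2 or 20 plasmid reads 1 lower, against 11 higher and 4 lower. Scaled on rd, 4 designs were lower at 10 bp than at 5 bp, against 2. For mRNA against genomic DNA, centring on rd gave 14 higher and 0 lower, a replicate block 4 higher and 1 lower, and leaving out the barcode of most mRNA 2 higher and 3 lower, against 7 and 2. Deviations from the mean of each construct correlated at -0.018, 0.046 and -0.027 between same-numbered integrated mRNA and genomic DNA samples. Such low values show no pairing but cannot exclude one, so the pairs behind the per-replicate integrated values may be arbitrary. The episomal libraries have 1 plasmid DNA library each. With 20 plasmid reads, 0 arrays were below rd at 10 bp, 1 below FOXO and 1 below IRF arrays at 5 bp, 5 below IRF arrays after integration, and 0 integrated order differences passed. Without the barcode of most mRNA, 2 integrated arrays exceeded FOXO arrays, 0 were below IRF arrays, 0 exceeded the copy-weighted mean, 0 order differences and 1 exchange of outer motifs passed. Below the copy-weighted mean at 5 bp was 1 array by the median over barcodes or among designs in both libraries, and above it after integration 4 with 10 barcodes or a pseudocount of 5. Against the stronger homotypic array, 5 were lower at 5 bp, 6 higher and 11 lower at 10 bp, and 0 higher and 9 lower after integration. Against a mean of linear values, 5 were lower at 10 bp and 1 after integration. Without 1 replicate, the counts were 2 to 4 lower than plasmid DNA at 5 bp, 3 to 5 higher and 1 to 2 lower than genomic DNA, 0 to 1 below rd at 10 bp, 0 to 3 below FOXO arrays, 1 to 3 below IRF arrays and 1 to 3 below the copy-weighted mean at 5 bp, 0 to 1 for the integrated exchange of outer motifs, and 0 for integrated differences from FOXO arrays, IRF arrays and the mean and for integrated order. The direction of these named departures turned against the stronger homotypic array: -0.12 for FOXO-IRF in context 1 at 5 bp. At 10 bp they were -1.10, -0.49 and -0.63 for FOXO-IRF, -1.16, -1.15 and -0.87 for IRF-FOXO and -1.74 for FOXO-IRF-FOXO in context 1, and after integration -1.38 and -1.94 for FOXO-IRF in contexts 1 and 2, -1.33 for IRF-FOXO and -2.76 for FOXO-IRF-FOXO-FOXO in context 2. For 10 bp minus 5 bp they were -0.97 and -0.13 for FOXO-IRF in contexts 1 and 2, -0.50 and -1.18 for FOXO-IRF-FOXO in contexts 2 and 3, -1.17 for FOXO-IRF-FOXO-FOXO in context 3, -0.079 and -0.28 for FOXO-IRF-FOXO-IRF in contexts 1 and 2 and -0.011 for FOXO-IRF-FOXO-IRF-FOXO in context 1. Against the mean of linear values they turned at 10 bp to -0.26 for FOXO-IRF in context 1, -0.52 for FOXO-IRF-FOXO in context 1 and -0.33, -0.32 and -0.20 for IRF-FOXO, and to -0.43 for FOXO-IRF in context 1 between spacers. The cause of these changes was not tested. Precision is limited by 1 plasmid DNA library per pool, 2 or 3 mRNA samples and, after integration, a barcode sampling error of 0.19 to 0.96 per array of the set. Some constructs the arrays were compared with had more, such as 1.19 for rd in context 2 and 1.16 for 3 FOXO motifs in context 1.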
